A study of Mus musculus with 2 samples.

Results

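Expression of 8 keratin genes was examined in sorted mammary luminal cells of mice, among 16906 genes with a value in each library. The genes were picked by symbol: Krt8, Krt18, Krt19 and Krt7 of the simple luminal epithelium, Krt5, Krt14 and Krt17 of the basal layer, and Krt4 of stratified epithelium. The CKO library came from K8-CreERT2;miR-200c/141-flox/flox mice, in which a tamoxifen-inducible Cre recombinase runs from a keratin 8 promoter and removes the floxed microRNA cluster, which encodes miR-200c and miR-141. The Ctrl library came from miR-200c/141-flox/flox mice without the Cre driver. All mice were C57BL/6, were 8 weeks old and received tamoxifen, and about 20000 cells were sorted before low-input bulk RNA sequencing. The interval after tamoxifen is given as 4 weeks in one label and as 3 days in another. Each group had 1 library, the number of mice behind it and the sorting gate are not given in the sources used here, and effects of the Cre driver and of the deletion cannot be told apart. The deletion itself was not checked, since no value of miR-200c or miR-141 is analysed here.

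Keratins are the intermediate filament proteins of epithelial cells. Filaments assemble from a type I protein paired with a type II protein, so that KRT18 pairs with KRT8 in simple epithelia and KRT14 pairs with KRT5 in basal cells. In the mammary gland KRT8, KRT18 and KRT19 mark the luminal layer, and KRT5, KRT14 and KRT17 mark the basal, myoepithelial layer. MicroRNAs bind messenger RNAs through their seed, bases 2 to 8, and lower their output, and the miR-200 family is best known for holding cells in an epithelial state through repression of Zeb1 and Zeb2.

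The mature strands of the deleted cluster, from RefSeq on GRCm38.p6, are shown because their seeds, in capitals, define the matches sought in the keratin transcripts.
miR-200c-3p: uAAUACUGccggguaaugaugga
miR-141-3p: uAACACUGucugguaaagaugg
The seeds pair with CAGTATT for miR-200c-3p and with CAGTGTT for miR-141-3p. Among the longest annotated 3' UTRs of the 8 keratins (GENCODE M21), 1 held such a match. It was that of Krt7, with 1 match to miR-141-3p in a UTR of 2648 bases, although the Krt7 transcript behind the deposited values is 1602 bases long in all. The other UTRs were between 66 and 490 bases long and held neither 7-mer. By comparison, 30.1% of 11153 measured genes held a match, with a median UTR of 1166 bases. No match says only that these letters are not in that window.

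The RefSeq table held a promoter window for 5 of the 8 genes, each running from 250 bases before to 50 bases after a start site. The windows of 4 are shown in the direction of transcription. Krt8 and Krt18 form the luminal pair, Krt5 is a basal gene and a Krt8 promoter also drives the Cre. Krt7 is shown in place of Krt14, which had been planned. Capitals mark CACCTG (reverse complement CAGGTG), the E-box that ZEB proteins can bind, and TATAAA (reverse complement TTTATA), the TATA box.
Krt8, chr15:102004293-102004592, minus strand: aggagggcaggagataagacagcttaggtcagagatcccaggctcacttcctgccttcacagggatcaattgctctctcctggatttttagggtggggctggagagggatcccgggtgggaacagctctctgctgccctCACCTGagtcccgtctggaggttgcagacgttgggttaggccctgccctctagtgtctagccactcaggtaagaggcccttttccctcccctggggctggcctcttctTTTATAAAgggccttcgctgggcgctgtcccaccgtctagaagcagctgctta
Krt18, chr15:102027966-102028265, plus strand: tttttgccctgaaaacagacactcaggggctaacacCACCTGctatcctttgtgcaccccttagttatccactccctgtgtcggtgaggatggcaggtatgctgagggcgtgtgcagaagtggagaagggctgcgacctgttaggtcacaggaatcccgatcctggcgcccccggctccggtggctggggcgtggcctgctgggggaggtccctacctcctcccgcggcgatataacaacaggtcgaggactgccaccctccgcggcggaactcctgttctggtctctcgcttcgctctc
Krt7, chr15:101412153-101412452, plus strand: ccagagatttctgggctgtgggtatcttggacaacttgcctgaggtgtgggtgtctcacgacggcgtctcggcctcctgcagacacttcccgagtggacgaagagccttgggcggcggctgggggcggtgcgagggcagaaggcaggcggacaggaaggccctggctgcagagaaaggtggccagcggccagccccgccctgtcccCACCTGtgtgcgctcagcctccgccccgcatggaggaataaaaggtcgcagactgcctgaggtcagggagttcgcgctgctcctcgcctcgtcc
Krt5, chr15:101712856-101713155, minus strand: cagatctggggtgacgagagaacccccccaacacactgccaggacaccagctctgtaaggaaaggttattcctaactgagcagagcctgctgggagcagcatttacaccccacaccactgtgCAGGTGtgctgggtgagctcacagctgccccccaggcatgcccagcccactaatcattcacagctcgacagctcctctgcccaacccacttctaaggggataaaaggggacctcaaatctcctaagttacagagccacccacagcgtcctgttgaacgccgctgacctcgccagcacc
The E-box letters were found once in each of these 4 windows, beginning at -111 in Krt8, -214 in Krt18, -44 in Krt7 and -128 in Krt5, counted from the start site, and on either strand they occur in 20.2% of 32851 windows of the same length. The Krt14 window, which belongs to a start site inside the annotated gene, held none. The 4 windows shown are thus the 4 of the 5 that hold these letters. TATAAA was found in the Krt8 window alone, overlapping its own reverse complement next to the annotated start, and occurs in 13.6% of all windows. The GC box GGGCGG (reverse complement CCGCCC) was found 4 times in Krt7 and in no other of the 5 windows, and occurs in 35.7% of all. The AP-1 element TGANTCA, its own reverse complement, was in none of the 5 and occurs in 7.81% of all. A match is a description of the letters and not evidence of binding.

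About 11400000 reads in CKO and 12500000 reads in Ctrl were assigned to the listed genes, both estimated from the deposited p-values. The number of reads sequenced is not known. Levels are FPKM, that is, fragments relative to transcript length and to the size of the library. Log2 ratios are CKO over Ctrl after adding 0.5 FPKM. Each has a 95% interval from the estimated reads (exact binomial, Clopper-Pearson), which covers counting error only, since PCR copies are not independent molecules, and says nothing of the spread between animals. Nothing is added to the reads, so the interval of a weak gene is not centred on its log2 ratio. A gene with a mean of at least 1 FPKM was counted as measured, and as higher or lower when it differed by at least 1.5-fold. There is no replicate and no p-value was computed. Luminal markers were abundant in both libraries: all 23 listed luminal markers outside the keratins were measured, led by the claudin gene Cldn4 at 2054 FPKM in CKO and 2180 FPKM in Ctrl and the adhesion gene Epcam at 1233 FPKM in CKO and 1190 FPKM in Ctrl. Of these 23 markers 1 was higher in CKO, Ly6a, a stem cell surface gene, at 220.2 FPKM in CKO and 138.2 FPKM in Ctrl, and 1 was lower, Prom1, a membrane glycoprotein gene, at 28.6 FPKM in CKO and 49.0 FPKM in Ctrl. Their median log2 ratio was 0.02. By the same rule 2.47% of all 11667 measured genes were higher in CKO and 3.15% lower.

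Keratin RNA was more abundant in the CKO library, with basal and stratified members and Krt18 furthest above Ctrl. Of the 8 keratins, 5 were at least 1.5-fold higher in CKO (Krt4, Krt14, Krt17, Krt18 and Krt5), 0 were lower and 3 lay within 1.5-fold (Krt19, Krt8 and Krt7). With FPKM rescaled to a common sum, an alternative for this count that was chosen after seeing the data, Krt18 and Krt5 came just under 1.5-fold and 3 of the 8 were higher. Across 11667 measured genes 2.47% passed 1.5-fold upward in CKO and 3.15% downward. The median log2 ratio of the 8 keratins was 0.65, beside -0.03 over all measured genes. The 8 were chosen with earlier results of these data known, so these figures describe them and are not a test. Among the 11 other measured keratins 1 was higher and 1 lower in CKO, with a median log2 ratio of 0.23. The FPKM was above Ctrl for all 8 genes as deposited, but with FPKM rescaled to a common sum Krt7 fell just below Ctrl, at a log2 ratio of -0.022. The members' transcripts are 1396 to 2190 bases long, and among 2380 measured genes in that range 3.15% passed 1.5-fold upward, 3.11% downward, and the median log2 ratio was 0.04.

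**Figure D1:**
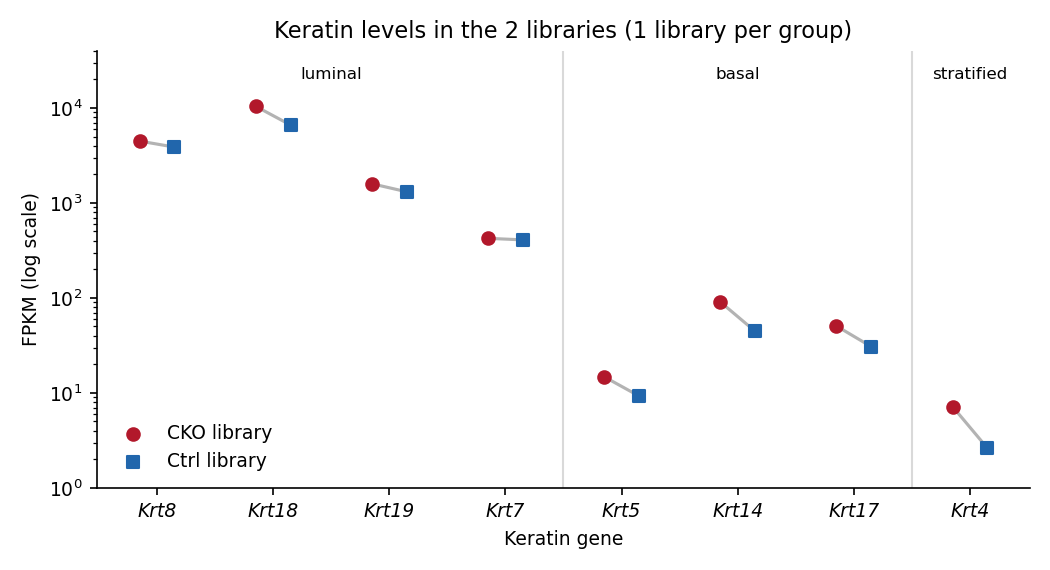
FPKM on a log scale of the 8 keratins, with the CKO library as circles and the Ctrl library as squares, 1 library per group and therefore no error bars. The order of the genes is the same in both libraries, with Krt18 highest at 10398 FPKM in CKO and 6607 FPKM in Ctrl and Krt4 lowest at 7.18 FPKM in CKO and 2.62 FPKM in Ctrl.

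The luminal keratins made up nearly all keratin RNA. Krt18, the type I keratin of simple epithelia, stood at 10398 FPKM in CKO and 6607 FPKM in Ctrl and was the most abundant gene in either library. Its log2 ratio was 0.65 (interval 0.64 to 0.67), a 1.57-fold difference resting on about 166582 reads in CKO and 115619 in Ctrl. With FPKM rescaled to a common sum it was 0.58, just under 1.5-fold. Of the 71 genes with a mean of at least 1000 FPKM, many encode ribosomal proteins. In this set 2.82% passed 1.5-fold upward in CKO, that is 2 genes, and 0% downward. Krt18 was itself 1 of those 2 and ranked 2nd by ratio. The 1st was the histocompatibility gene H2-D1, chosen after its values were seen, at 1359 FPKM in CKO and 774.4 FPKM in Ctrl. The median log2 ratio of these 71 genes was 0.14. Krt18 (Entrez 16668) lies on chromosome 15 at 102028216 to 102032026 of GRCm38.

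Krt8, the type II partner of Krt18 and the gene whose promoter drives the Cre, stood at 4476 FPKM in CKO and 3871 FPKM in Ctrl. Its log2 ratio was 0.21 (0.20 to 0.22), which ranked 19th among the same 71 genes. Krt8 (Entrez 16691) lies near Krt18 on chromosome 15, at 101996711 to 102004342. Of the 50-base stretches of its transcript, 26.9% also occur in the annotated pseudogene Krt8-ps, so part of its reads could be assigned to either. For Krt18 this share was 0.720%, and for Krt19, Krt7 and Krt4 it was 0%.

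Krt19, a short type I keratin of luminal cells (chromosome 11, 100140810 to 100145926), stood at 1591 FPKM in CKO and 1309 FPKM in Ctrl. Its log2 ratio was 0.28 (0.26 to 0.31), ranking 7th of the 71. Krt7, a type II keratin of glandular and ductal epithelia (chromosome 15, 101412403 to 101427806), stood at 423.7 FPKM in CKO and 408.1 FPKM in Ctrl. Its log2 ratio of 0.05 (0.01 to 0.10) was the nearest to 0 of the 8. The luminal keratins thus spanned log2 ratios from 0.05 to 0.65, with 1 of 4 past 1.5-fold.

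The basal keratins were present at a small fraction of the luminal level and were all at least 1.5-fold higher in CKO. Krt14, the type I keratin of basal cells (chromosome 11, 100203162 to 100207510), stood at 90.8 FPKM in CKO and 44.5 FPKM in Ctrl. Its log2 ratio was 1.02 (0.91 to 1.14), from about 1740 reads in CKO and 932 in Ctrl. At 2-fold, which Krt14 and Krt4 reached, 0.754% of all measured genes were higher in CKO and 0.557% lower. Krt17, a type I keratin of myoepithelium and of injured epidermis (chromosome 11, 100256215 to 100261029), stood at 50.6 FPKM in CKO and 30.7 FPKM in Ctrl, a log2 ratio of 0.71 (0.57 to 0.87).

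Krt5, the type II partner of Krt14 (chromosome 15, 101707069 to 101712905), stood at 14.8 FPKM in CKO and 9.27 FPKM in Ctrl. Its log2 ratio was 0.65 (0.44 to 0.91), from about 370 reads in CKO and 254 in Ctrl, so the interval reaches below 1.5-fold. With FPKM rescaled to a common sum Krt5, like Krt18, was just under 1.5-fold, at a log2 ratio of 0.57. Basal keratins are close paralogs: 14.4% of the 50-base stretches of Krt14, 8.52% of those of Krt5 and 3.99% of those of Krt17 occur in another gene, most often Krt16 for Krt14, Krt6a for Krt5 and Krt14 for Krt17. Their values are uncertain to the extent that reads were split among these copies. Together the basal keratins held 0.916% of the summed FPKM of the 8 genes in CKO and 0.687% in Ctrl.

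Krt4, a type II keratin of stratified mucosal epithelia such as the oesophagus (chromosome 15, 101918535 to 101924735), had the highest ratio and the lowest level of the 8. It stood at 7.18 FPKM in CKO and 2.62 FPKM in Ctrl, from about 176 reads in CKO and 70 in Ctrl. Its log2 ratio was 1.30 (1.05 to 1.88), where the interval is wide because of the few reads. In the authors' deposited table, which tests the reads of 1 library against the other and so compares the libraries and not the conditions, Krt4 and Krt14 are called up at false discovery rates of 2.5e-12 and 6.92e-70. In the authors' deposited table Krt17, Krt5 and Krt18 have no call, which there requires at least a 2-fold difference, and Krt7 has a false discovery rate of 0.0669.

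Ratios between keratins within a library were also taken after adding 0.5 FPKM to each gene, and their intervals rest on the reads with nothing added. The ratio of Krt8 to Krt18 was 0.431 in CKO and 0.586 in Ctrl, a log2 difference of -0.44 (-0.46 to -0.43, 95% log-normal interval, counting error only). Put the other way, Krt18 had 2.32 times the FPKM of Krt8 in CKO and 1.71 times in Ctrl. The ratio of Krt5 to Krt14 was 0.167 in CKO and 0.217 in Ctrl, a log2 difference of -0.38 (-0.62 to -0.10). In both pairs the type I partner was the more abundant, and its excess over the type II partner was larger in CKO. These are ratios of RNA and not of protein.

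The luminal keratins other than Krt18 kept closer to each other. The ratio of Krt8 to Krt19 was 2.81 in CKO and 2.96 in Ctrl, a log2 difference of -0.07 (-0.10 to -0.04). The ratio of Krt18 to Krt19, both type I, was 6.53 in CKO and 5.04 in Ctrl, a log2 difference of 0.37 (0.35 to 0.40). The ratio of Krt7 to Krt18 moved furthest among the luminal pairs computed, at 0.0408 in CKO and 0.0618 in Ctrl, a log2 difference of -0.60 (-0.65 to -0.55). Krt7 to Krt19 was 0.267 in CKO and 0.312 in Ctrl.

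Within the basal group the ratio of Krt5 to Krt17 was 0.299 in CKO and 0.314 in Ctrl, and its log2 difference of -0.07 had an interval (-0.33 to 0.22) that holds 0. Krt14 to Krt17 was 1.79 in CKO and 1.44 in Ctrl, a log2 difference of 0.31 (0.12 to 0.49). Across the layers, the ratio of Krt14 to Krt18 was 0.00878 in CKO and 0.00681 in Ctrl, a log2 difference of 0.37 (0.26 to 0.49). The ratio of Krt5 to Krt8 was 0.00341 in CKO and 0.00252 in Ctrl, a log2 difference of 0.44 (0.23 to 0.69). Of basal to luminal RNA, both of these ratios were therefore higher in CKO. This depends on the pair taken, since Krt5 and Krt18 had nearly equal log2 ratios, 0.645 and 0.654. Other basal to luminal pairs were not computed. Krt4 to Krt19 was 0.00483 in CKO and 0.00238 in Ctrl, a log2 difference of 1.02 (0.78 to 1.58), or 1.17 with nothing added.

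**Figure D2:**
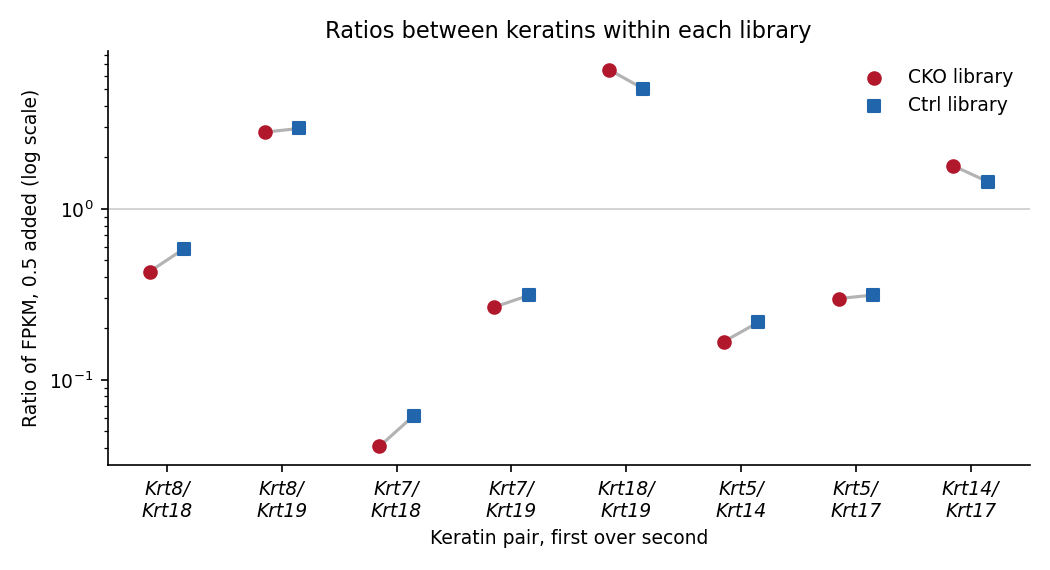
Ratio of FPKM between keratins within each library, after adding 0.5 FPKM to each gene, on a log scale, with CKO as circles and Ctrl as squares. Krt8 over Krt18 lies at 0.431 in CKO and 0.586 in Ctrl, whereas Krt8 over Krt19 differs little, at 2.81 in CKO and 2.96 in Ctrl.

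The make-up of the keratin pool followed from these levels. All 36 keratin genes together took 2.61% of the reads assigned to listed genes in CKO (Clopper-Pearson interval 2.60 to 2.62) and 1.91% in Ctrl (1.91 to 1.92). The 8 genes held 99.3% of the summed keratin FPKM in CKO and 98.96% in Ctrl. Krt18 alone held 60.5% in CKO and 53.2% in Ctrl, while Krt8 held 26.1% in CKO and 31.2% in Ctrl. Type II over type I keratins, summed over all genes of each type, came to 0.412 in CKO and 0.548 in Ctrl. Krt18 therefore took a larger part of the pool in CKO, and Krt8, Krt19 and Krt7 took a smaller part.

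Of the 28 other keratin genes 11 were measured, and the highest mean among them was 42.0 FPKM. Krt23, a type I keratin, was the only 1 of these counted as higher in CKO, at 4.80 FPKM in CKO and 2.28 FPKM in Ctrl. The authors call Krt23 up, like Krt4 and Krt14, at their log2 fold change of 1.07 with nothing added. Krt31, a hair keratin, was the only 1 counted as lower, at 1.06 FPKM in CKO and 2.23 FPKM in Ctrl, from about 19 reads in CKO and 44 in Ctrl. Krt6a, a type II keratin induced in wounded and hyperproliferative epidermis, ran opposite to its relatives Krt5 and Krt14, at 34.8 FPKM in CKO and 49.2 FPKM in Ctrl, a log2 ratio of -0.49 (-0.62 to -0.38). Krt15 and Krt16, type I keratins of basal and of activated epidermal cells, had log2 ratios of 0.39 (0.10 to 0.73) and 0.33 (0.08 to 0.62). The median of the 11 was 0.23.

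The remaining measured keratins lay within 1.5-fold. Krt80, an epithelial type II keratin, stood at 35.0 FPKM in CKO and 35.9 FPKM in Ctrl, and its log2 ratio of -0.04 had an interval of -0.16 to 0.09. Krt78 had a log2 ratio of 0.48 (0.24 to 0.87). For Krt79, Krt42, Krt87 and Krt10 the intervals held 0, with log2 ratios of 0.25, 0.17, -0.17 and 0.23. The other 17 keratin genes reached at most 1.01 FPKM in either library. Over all 19 measured keratins 6 were higher and 1 was lower in CKO, with a median log2 ratio of 0.28. Among all measured genes 2.47% were higher and 3.15% lower.

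**Figure D3:**
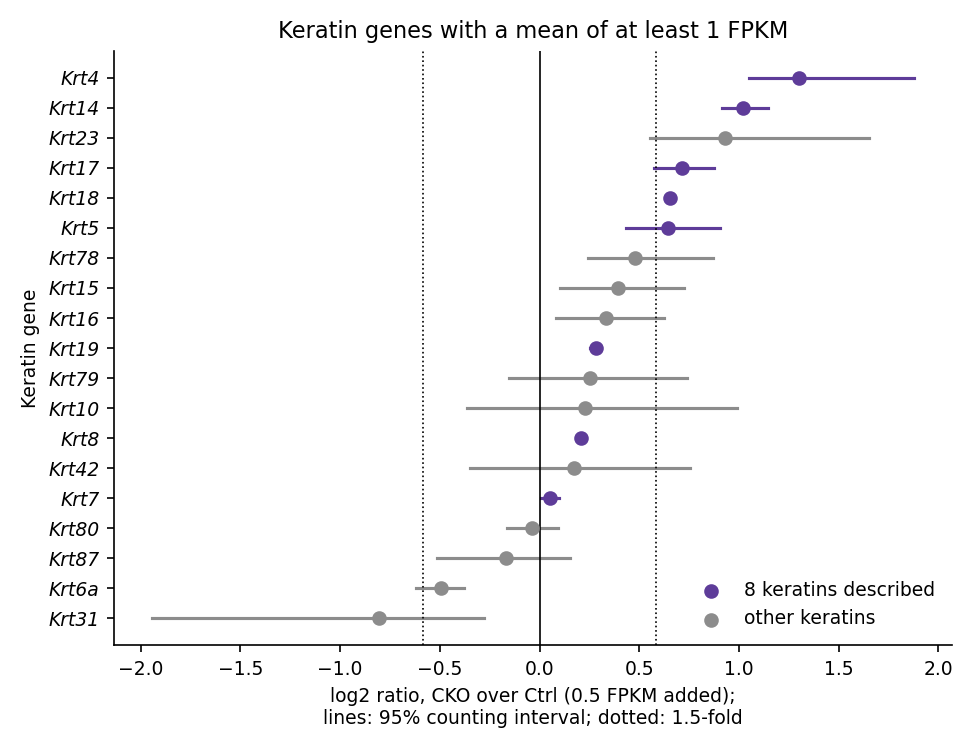
Log2 ratio of CKO over Ctrl, after adding 0.5 FPKM, for the 19 measured keratin genes, with lines for the 95% counting interval and dotted lines at 1.5-fold. Krt4 lies highest at 1.30 and Krt31 lowest at -0.81, and the intervals of the abundant genes Krt18, Krt8 and Krt19 are narrower than the points.

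Basal markers outside the keratins moved with the basal keratins in part. Of 21 such markers 18 were measured, and 6 were higher and 1 lower in CKO, with a median log2 ratio of 0.34. The shares over all measured genes were 2.47% higher and 3.15% lower. The 6 higher genes were contractile: smooth muscle actin Acta2 at 66.7 FPKM in CKO and 33.7 FPKM in Ctrl, smooth muscle myosin Myh11 at 9.71 FPKM in CKO and 4.91 FPKM in Ctrl, and Actg2, Tagln, Cnn1 and Tpm2 with log2 ratios between 0.63 and 0.82. The matrix gene Sparc, named after its values were seen, came just under 1.5-fold, at 26.5 FPKM in CKO and 17.6 FPKM in Ctrl. After division by the median ratio 7 markers were higher. Trp63, the transcription factor of basal identity that activates Krt5 and Krt14, was the lower gene, at 1.05 FPKM in CKO and 2.96 FPKM in Ctrl. The most abundant markers, the growth factor binding gene Igfbp5 and the integrin gene Itga6, had log2 ratios of -0.50 and -0.42. 

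The summed FPKM of the 21 markers was 536.6 in CKO and 556.5 in Ctrl. Igfbp5 weighs most in this sum, at 166.1 FPKM in CKO and 235.1 FPKM in Ctrl. The sum therefore does not give the direction of most markers, since 12 of the 18 measured log2 ratios were above 0. Of the 21 markers 0 were at the table's floor in either library. The lowest were Lgr5 and Oxtr, named after their values were seen, both under 1 FPKM in each library. In bulk RNA a larger number of basal cells and more basal RNA per cell cannot be told apart, and the part of basal cells in the values of Krt5, Krt14 and Krt17 was not tested. These markers were listed with earlier results of these data known.

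Other genes of stratified and cornified epithelium showed no common direction beside Krt4. Of 29 listed genes 16 were measured, 1 was higher and 1 lower in CKO, and the median log2 ratio was 0.00. Over all measured genes 2.47% were higher and 3.15% lower. Ly6d, a surface protein gene of keratinocytes and some lymphoid cells, was the higher gene, at 429.5 FPKM in CKO and 92.5 FPKM in Ctrl, a log2 ratio of 2.21 (2.10 to 2.33). Grhl3, a regulator of epidermal barrier formation, was the lower gene, at 2.60 FPKM in CKO and 4.35 FPKM in Ctrl. The most abundant other members, Sfn (14-3-3 sigma) and Lypd3, had log2 ratios of -0.07 and 0.01. Krt13, the usual type I partner of Krt4 and also named after its values were seen, was at 0.07 FPKM in CKO and 0.13 FPKM in Ctrl, so the pair could not be compared at this depth.

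RNA of the genes listed for keratin attachment lay mostly on the lower side in CKO, though 18 of the 20 measured were within 1.5-fold. Of 23 listed attachment genes 20 were measured, with 0 higher and 2 lower in CKO, and 6 of the 20 log2 ratios were above 0. The median was -0.25. Over all measured genes 2.47% were higher and 3.15% lower. The lower genes, both cytoskeletal linkers, were Dst, at 33.2 FPKM in CKO and 50.3 FPKM in Ctrl, and Macf1, at 12.5 FPKM in CKO and 19.0 FPKM in Ctrl, each at a log2 ratio of -0.59, just past 1.5-fold. Among the most abundant, plakoglobin (Jup) was at 277.7 FPKM in CKO and 278.3 FPKM in Ctrl and plectin (Plec) at 118.7 FPKM in CKO and 153.7 FPKM in Ctrl. Some of these transcripts are long, among them Dst at 16488 bases and Macf1 at 17709 bases. The 409 measured genes of at least 8000 bases had a median log2 ratio of -0.25. Most of the measured attachment genes are shorter than that, so the 2 medians are not matched on length. The part of transcript length in these values was not tested.

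Intermediate filament genes outside the keratins were within 1.5-fold. Of 16 listed, 7 were measured, 0 were higher or lower, and the median log2 ratio was 0.20. With 2.47% of all measured genes higher and 3.15% lower, few would be past 1.5-fold in a list this short. The nuclear lamin gene Lmna was at 1108 FPKM in CKO and 889.3 FPKM in Ctrl, and Lmnb1, another lamin gene and the next most abundant, at 19.8 FPKM in CKO and 17.1 FPKM in Ctrl. Next by mean level, Vim, the filament gene of mesenchymal and basal cells, was at 20.3 FPKM in CKO and 14.4 FPKM in Ctrl, a log2 ratio of 0.48 (0.29 to 0.71).

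**Figure D4:**
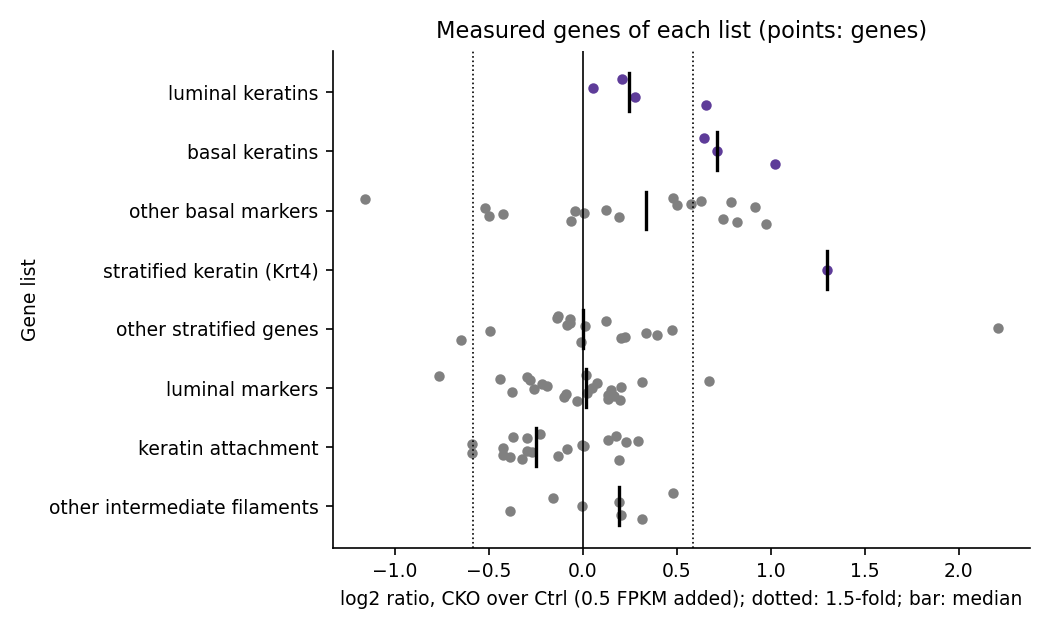
Log2 ratios of CKO over Ctrl for the measured genes of each list, with a point per gene, a bar at the median and dotted lines at 1.5-fold. The basal keratins lie between 0.65 and 1.02, while the other basal markers spread from -1.16 (Trp63) to 0.98 (Acta2).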

How the data were processed

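RNA of sorted luminal cells was sequenced as 1 library per group. The submitters' processing notes name HISAT, Bowtie2, RSEM and mm10, without versions or roles. The deposited FPKM, made by the authors, have no unit in the header, but times transcript length in kilobases they summed to 999909 in CKO and 999609 in Ctrl. They are rounded to 2 decimals and never below 0.01. The log2 fold change deposited beside them is the log2 ratio of the authors' FPKM columns. The deposited p-value and false discovery rate come from the authors' Poisson comparison between the libraries. All 212 genes they called, and no others, had a rate of 0.001 or less and differed 2-fold or more.

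No count was available, so FPKM were used with 0.5 added and no further scaling. Genes at the floor in Ctrl gave the CKO share of reads, 0.478, and for 620 of 641 of them the p-value corresponded to whole reads, to a tolerance of 0.01. The p-values of 11347 genes then gave the totals, leaving recomputed and deposited p-values apart by 0.0640 (median, log10). Reads per gene are FPKM scaled by length and library total, and intervals use these estimates. The depth fit and the intervals were tested only on simulated reads drawn independently, with p-values from the same formula that the fit inverts. Such a test does not cover PCR copies or reads split among genes.

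Named genes were the 8 keratins, the other measured keratins (mean of 1 FPKM or more) and, of each list, genes past 1.5-fold and up to 3 of the most abundant. Members and lists were chosen with earlier results of these data known. All 11 keratin pairs were fixed together. Promoters and miRNAs came from RefSeq on GRCm38.p6, the same build as mm10, and UTRs and transcripts from GENCODE M21. Alternatives were the FPKM added, the scaling, the minimum level and the fold. Python 3.11.15, numpy 2.4.6, scipy 1.17.1 and pandas 2.3.3 were used.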

Additional observations from a re-analysis of the deposited data

How the results depend on the processing

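No paired analysis was possible because each group had 1 library, and for the same reason no library could be left out. Of 47 values of the 8 log2 ratios under the alternatives, 43 stayed within the counting interval. The other 4 came from rescaling FPKM to a common sum, which gave 0.13 for Krt8, 0.58 for Krt18, just under 1.5-fold, 0.20 for Krt19 and -0.022 for Krt7. The read ratio implied by the deposited p-value stayed within the interval for the 7 keratins where it could be computed. The reads behind these intervals were themselves estimated from the deposited p-values. These 7 values, counted among the 43, are therefore not an independent check. All 22 values of the pair differences stayed within theirs. Over estimated reads in place of FPKM, the share of the keratin pool differed between CKO and Ctrl by -5.51 percentage points for Krt8 and -1.03 for Krt19.

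At 2-fold, 2 keratins were higher and 0 lower (2 among the 8), and the counts were 0 for lower attachment genes, higher basal markers, lower stratified genes, luminal markers either way, lower endothelial markers and higher immune markers. The 2-fold counts of keratins rest on the 0.5 FPKM added. With nothing added, Krt23 and Krt31 passed 2-fold as well, at deposited log2 fold changes of 1.07 and -1.07. With a minimum of 5 FPKM, 0 keratins, basal markers, stratified genes and endothelial markers were lower and 1 immune marker was higher. With 1 FPKM added, 0 attachment, stratified and endothelial genes were lower and 1 immune marker was higher. Division by the median ratio left 0 lower attachment genes. With no minimum, 2 stratified genes, 2 fibroblast markers and 1 immune marker were lower. With FPKM rescaled to a common sum, 3 of the 8 keratins were higher, an alternative added after seeing the data, as were all those for counts over the 8. The other 90 of 114 counts stayed within 1.5 times. Weak keratins are limited by depth, since at the length of Krt4 a count of 0 allows up to 0.122 FPKM in CKO and 0.112 FPKM in Ctrl (3 reads, counting error only).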

Other observations

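Markers of cell types outside the epithelium were low beside the luminal keratins, though some exceeded Krt5 and Krt4. For comparison with their counts, 2.47% of all measured genes were higher in CKO and 3.15% lower. Of 14 listed haematopoietic markers 6 were measured, 2 were higher in CKO and 0 lower, and their median log2 ratio was 0.37. The higher genes were the neutrophil gene S100a8, at 13.8 FPKM in CKO and 7.09 FPKM in Ctrl, and the macrophage complement gene C1qa, at 1.73 FPKM in CKO and 0.91 FPKM in Ctrl, whose interval (-0.15 to 2.09) holds 0. The summed FPKM of the list was 36.1 in CKO and 25.6 in Ctrl. Of 7 fibroblast markers 4 were measured and 0 were past 1.5-fold, and the proteoglycan gene Dcn was at 30.7 FPKM in CKO and 25.6 FPKM in Ctrl. The others, too weak to count as measured, are named after their values were seen. Pdgfra, at 0.31 FPKM in CKO and 1.05 FPKM in Ctrl, and Lum, at 0.38 and 1.16, were past 1.5-fold lower. Fbln1 was at 0.54 FPKM in CKO and 0.43 FPKM in Ctrl. Of 9 endothelial markers 7 were measured and 1 was lower in CKO, the VEGF receptor gene Flt1, at 1.37 FPKM in CKO and 2.32 FPKM in Ctrl. Of 6 adipocyte markers 2 were measured, the fatty acid binding gene Fabp4 at 44.2 FPKM in CKO and 33.4 FPKM in Ctrl and the lipase gene Lipe at 34.6 FPKM in CKO and 24.3 FPKM in Ctrl, and neither was past 1.5-fold. Plin1 and Cidec of the same list, also named after their values were seen, were nearly absent. Plin1 was at 0.05 FPKM in CKO and 0.17 FPKM in Ctrl, and Cidec at 0.10 FPKM in CKO and 0.14 FPKM in Ctrl.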
